A study of Mus musculus with 4 samples.

Results

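The comparison described here sets the LSK cells of double-mutant mice, which carried both Jak2 V617F and a constitutively active Ikk2 (Ikk2-CA), against those of Vav1-iCre control mice. It rests on 2 of the 4 libraries of the series and on 13323 of its 37344 kept cells, 5268 double-mutant and 8055 control. A droplet barcode was kept as a cell when it held 500 to 7500 genes and under 10% of its UMIs (unique molecular identifiers, the counted transcript molecules) came from the mitochondrial genome. The UMIs of all kept cells of a library were summed per gene and scaled to a library total of 1000000 (counts at that total, CPM), and the 8294 genes that reached 10 CPM in one or both libraries were compared. LSK (lineage-negative, Sca-1-positive, Kit-positive) is the bone marrow gate that holds blood stem cells and multipotent progenitors. Each library pooled 5 mice aged 8 to 12 weeks. There was 1 library per genotype, so the spread between mice could not be measured, no p-value is given, and intervals are 95% and cover counting error only.

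Control mice carried one copy of the Vav1-iCre transgene and neither mutant allele. Double-mutant mice carried that same transgene together with one floxed Jak2 V617F allele and one floxed Ikk2-CA allele (R26StopFLikk2ca), so every cell of both groups came from a Vav1-iCre animal. The transgene drives recombination in blood-forming cells from the Vav1 promoter. Per the design text, Ikk2-CA holds the substitutions S177E and S181E, and the breeding scheme also brought in an NF-κB-responsive EGFP reporter on an FVB-derived background. Whether the control mice carried that reporter is not stated, and neither it nor the recombinase is among the counted features. The 2 single-mutant libraries, Ikk2CA and Jak2V617F, share this control and are quoted only as values side by side.

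Ikk2 is the kinase that marks the IκB inhibitors for destruction and so frees NF-κB dimers such as RelA with p50 to enter the nucleus, where they induce, among many genes, those of their own inhibitors. The second arm of the pathway works through RelB and the p100 precursor encoded by Nfkb2. Jak2 is the kinase bound to the receptors of several blood cytokines, its V617F form signals without a cytokine, mostly through STAT5, and it is the common driver of human myeloproliferative neoplasms.

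Promoter sequences are shown for 4 of the higher genes on which the NF-κB results turn, and for Pf4 as a higher gene whose window held no match. They are the 300 bases from 250 before to 50 after a RefSeq start site (GRCm38.p6), 5′ to 3′ on the gene's strand, with every match on either strand to the κB pattern (GGG, any 5 bases, then CC) in capitals. Matches that overlap one another appear as 1 run of capitals. The windows are Nfkbia at chr12:55492598-55492897, minus strand, Nfkb2 at chr19:46304487-46304786, plus strand (the first of 3 listed starts), Ltb at chr17:35194257-35194556, plus strand, Ehd3 at chr17:73804591-73804890, plus strand, and Pf4 at chr5:90772185-90772484, plus strand.
Nfkbia: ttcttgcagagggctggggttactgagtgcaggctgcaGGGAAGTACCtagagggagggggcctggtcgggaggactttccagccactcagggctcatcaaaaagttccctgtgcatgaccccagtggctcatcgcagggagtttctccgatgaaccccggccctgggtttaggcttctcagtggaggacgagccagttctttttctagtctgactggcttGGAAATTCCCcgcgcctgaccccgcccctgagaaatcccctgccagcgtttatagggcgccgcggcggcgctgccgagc
Nfkb2: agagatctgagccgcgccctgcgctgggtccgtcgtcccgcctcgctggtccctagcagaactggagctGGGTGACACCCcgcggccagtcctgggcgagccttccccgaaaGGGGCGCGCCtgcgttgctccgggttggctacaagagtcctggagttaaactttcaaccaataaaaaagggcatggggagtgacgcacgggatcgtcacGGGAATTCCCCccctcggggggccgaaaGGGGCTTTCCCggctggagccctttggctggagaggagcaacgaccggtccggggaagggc
Ltb: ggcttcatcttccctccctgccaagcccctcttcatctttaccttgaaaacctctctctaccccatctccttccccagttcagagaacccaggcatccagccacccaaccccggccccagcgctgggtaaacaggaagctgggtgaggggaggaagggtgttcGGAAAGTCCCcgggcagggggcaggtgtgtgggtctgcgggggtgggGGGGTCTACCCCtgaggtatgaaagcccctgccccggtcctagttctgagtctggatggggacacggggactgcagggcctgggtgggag
Ehd3: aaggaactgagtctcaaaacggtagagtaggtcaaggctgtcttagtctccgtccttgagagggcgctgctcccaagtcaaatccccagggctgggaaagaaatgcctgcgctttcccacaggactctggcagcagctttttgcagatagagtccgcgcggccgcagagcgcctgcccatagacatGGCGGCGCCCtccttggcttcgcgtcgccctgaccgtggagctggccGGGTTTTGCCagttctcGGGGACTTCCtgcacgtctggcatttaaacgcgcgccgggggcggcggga
Pf4: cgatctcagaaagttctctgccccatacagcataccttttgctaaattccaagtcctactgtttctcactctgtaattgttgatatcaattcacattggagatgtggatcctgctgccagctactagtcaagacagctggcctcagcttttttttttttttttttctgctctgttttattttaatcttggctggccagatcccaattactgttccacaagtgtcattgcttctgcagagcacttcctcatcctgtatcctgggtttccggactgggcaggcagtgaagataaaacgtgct
The Nfkbia window held 2 matches, that of Nfkb2 7, Ltb 4, Ehd3 3 and Pf4 0. This pattern is common: 72.5% of the 6678 compared genes with a promoter in the table had a match, as did 53.5% of all 27025 genes in it. Among the NF-κB subunit and kinase genes it was found in 7 of 7, among feedback inhibitors in 8 of 11 and among target effectors in 14 of 17. Of all genes 2-fold higher or more with a promoter in the table, 25 of 32 had a match (78.1%). A match is a string of letters and not a shown binding site.

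Depth differed between the 2 libraries, at a median of 24915 UMIs per double-mutant cell and 10606 per control cell, with 142211877 and 102362297 UMIs in all. The mitochondrial limit removed 439 double-mutant and 1727 control barcodes, and the kept cells had median mitochondrial shares of 3.69% and 4.33%. Shares of cells with a transcript are therefore given after each cell was thinned at random to 5000 UMIs, which left 5122 double-mutant and 7217 control cells and left out 146 and 838 shallower ones. Only 19 barcodes occurred in both libraries. When cells of both were clustered together at this equal depth, 89.4% of double-mutant and 91.5% of control cells fell into clusters made up by over 90% of 1 library. Classes were therefore built from control cells alone, and each double-mutant cell took the class of its nearest control cells. This gave 13 classes with at least 20 cells in each library, of which 5 carried enough markers to be named (stem cell-like, lymphoid-primed-like, megakaryocyte-like, granulocyte-monocyte-like and B cell-like). Double-mutant cells were matched to these classes across a large difference, so a class is a nearest resemblance. Genes that mark or lead a class are not compared within it. In the sums over a library, more cells of a type and more RNA per cell cannot be told apart.

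The gate markers were found in both libraries. At equal depth Kit had a UMI in 38.6% against 51.9% of double-mutant and control cells and Ly6a, which encodes Sca-1, in 54.3% against 37.5%, while the T cell marker Cd3e was at 0 and 0.137 CPM. The mutant alleles could not be read from these counts: Ikbkb, which encodes Ikk2, stood at 51.5 against 58.4 CPM and Jak2 at 11.6 against 19.8 CPM, without regard to allele.

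Of the 8294 genes, 69 (0.832%) reached 2 times the control level or more in the double mutant, and 202 (2.44%) stood at 0.5 times that level or less. Of all 8294, 26.9% were above and 73.1% below the control level. The median gene stood at −0.24 on the log2 scale, so a gene at its control level in CPM was already above the typical gene. Measured from that median gene, 116 genes (1.4%) were 2-fold higher or more, and 95 (1.15%) were 0.5 times as high or less. In the lists below, the median log2 ratio is followed by its value relative to the median gene. The top quintile of genes by mean CPM had a median log2 ratio of 0.04 and the bottom quintile −0.43, where 6.75% of genes were 0.5 times as high or less. Within classes the differences were often shared. Among 8188 genes that could be compared in at least 5 classes, 6.42% were higher in every class compared and 31.4% lower in every one. Of the 69 genes 2-fold higher or more, 52 could be so compared and 47 of them were higher in every class. Of the 202 genes at 0.5 times the control level or less, 170 could be compared and 151 were lower in every class, but the size was less often shared: 8 were at 0.5 times or less in every class, 97 in at least 0.5 of their classes and 73 in fewer. When each class was given its control share of cells, the count of 202 came to 67. The classes hold the same cells as the library sums, so this breadth is a description and no replication.

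**Figure D1:**
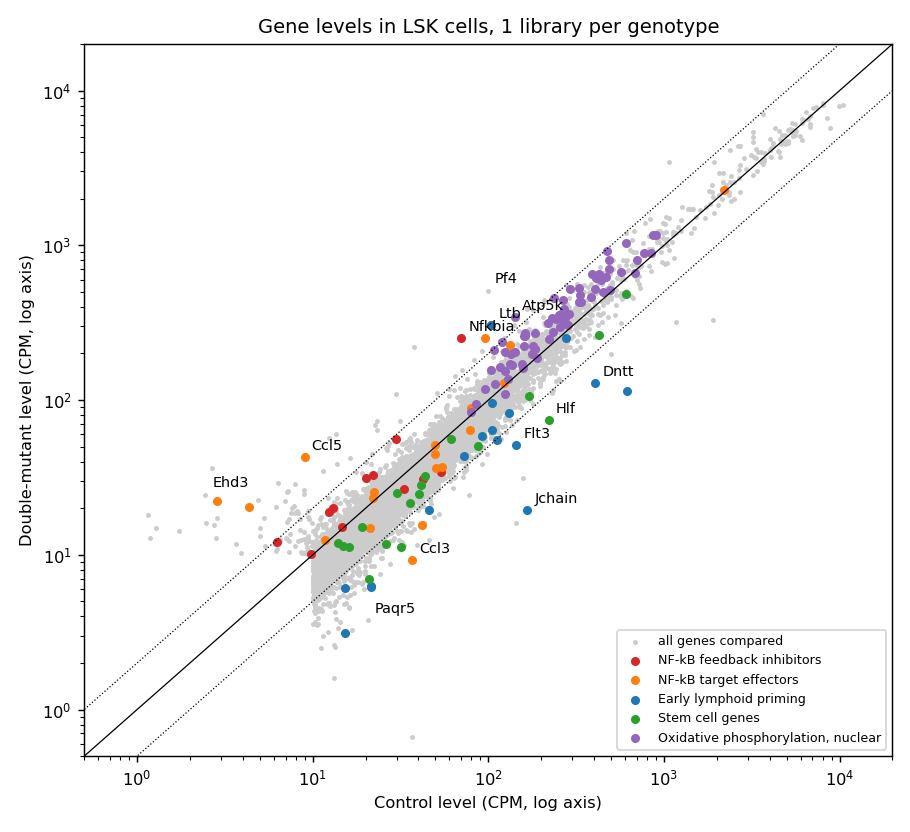
Level of each compared gene in the control library (x axis, CPM, log scale) and the double-mutant library (y axis, CPM, log scale), with 5 gene lists in colour. The solid line marks equal levels and the dotted lines 2-fold differences. Most points follow the solid line, with Pf4, Nfkbia and Ltb above the upper dotted line and Flt3, Hlf and Dntt below the lower one; 3 genes with under 0.5 CPM in a library lie outside the axes.

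Among the genes that carry the NF-κB signal, Relb and Nfkb2 stood out from the rest. Of 10 compared subunit and kinase genes, 2 were 2-fold higher or more, against 0.832% of all genes. The other 8 were lower, as were 73.1% of all genes (median −0.30, relative −0.07). Relb, the activating subunit of the second arm, was at 6.31 CPM in control, 34.9 in Ikk2CA, 6.46 in Jak2V617F and 28.9 in the double mutant, a double-mutant to control ratio of 4.59 (95% interval 4.22 to 4.99). Nfkb2, which encodes its p100 partner, was at 7.64 CPM in control, 27.5 in Ikk2CA, 8.57 in Jak2V617F and 19.998 in the double mutant. Neither the RelA gene Rela (33.5 against 38.8 CPM) nor Nfkb1 (82.1 against 97.7 CPM) nor Rel (23.1 against 30.9 CPM) was higher, and Map3k14, the kinase that starts the second arm, was at 8.12 against 13.3 CPM. Tbk1 (23.3 against 36.8 CPM) and Ikbkg, the scaffold of the Ikk complex (9.38 against 13.5 CPM), were lower as well.

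The feedback inhibitors were higher as a group, with 9 of 12 above 0, against 26.9% of all genes. Their median log2 ratio was 0.59 (relative 0.82), and 1 of them was at least 2 times as high (0.832% of all genes). Nfkbia, the IκBα inhibitor (chr12:55489410-55492647), was at 69.9 CPM in control, 325 in Ikk2CA, 87.4 in Jak2V617F and 252 in the double mutant. This is 3.6 times the control level (interval 3.51 to 3.7). The other IκB genes differed less, with Nfkbib at 31.2 against 20.02 CPM and Nfkbie at 19.96 against 13.1 CPM. Traf3, an adaptor that restrains the second arm, was at 18.9 against 12.3 CPM, Bcl3, an atypical IκB, at 12.05 against 6.28 CPM, and Tnip3, an A20-binding protein, at 55.8 against 29.7 CPM. The ubiquitin ligase Birc2 (34.04 against 53.9 CPM) and the deubiquitinase Cyld (30.9 against 42.4 CPM) were lower, and A20 itself (Tnfaip3) was under 10 CPM in both libraries, at 7.07 against 4.16 CPM.

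The target effectors were divided. Of 20 compared, 13 were above 0, against 26.9% of all genes (median 0.07, relative 0.30). At least 2 times as high were 5 (0.832% of all genes), and at most 0.5 times as high were 2 (2.44% of all genes). Higher ones included Ltb, the membrane-anchored lymphotoxin β, at 104 CPM in control, 355 in Ikk2CA, 88.04 in Jak2V617F and 304 in the double mutant. Serpina3g, a protease inhibitor, was at 96.2 CPM in control, 141 in Ikk2CA, 226 in Jak2V617F and 252 in the double mutant, so its highest level was in the double mutant and its level in Jak2V617F was above that in Ikk2CA. Reads of Serpina3g and Serpina3f, which belong to a cluster of near-identical genes, may be split between copies. Pdcd1lg2, which encodes the checkpoint ligand PD-L2, was at 20.3 against 4.36 CPM. The chemokine genes went in different directions: Ccl5 was at 42.8 against 8.98 CPM, while the macrophage inflammatory protein genes Ccl3 and Ccl4 were at 9.2 against 36.8 CPM and 15.5 against 42.03 CPM. Fth1 (2277 against 2193 CPM), Sod2 (129 against 123 CPM), Ier3 (51.2 against 49.9 CPM) and Gadd45b (12.4 against 11.7 CPM), commonly listed targets, lay within 1.5 times of control, and Icam1 was at 14.8 against 21.3 CPM.

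**Figure D2:**
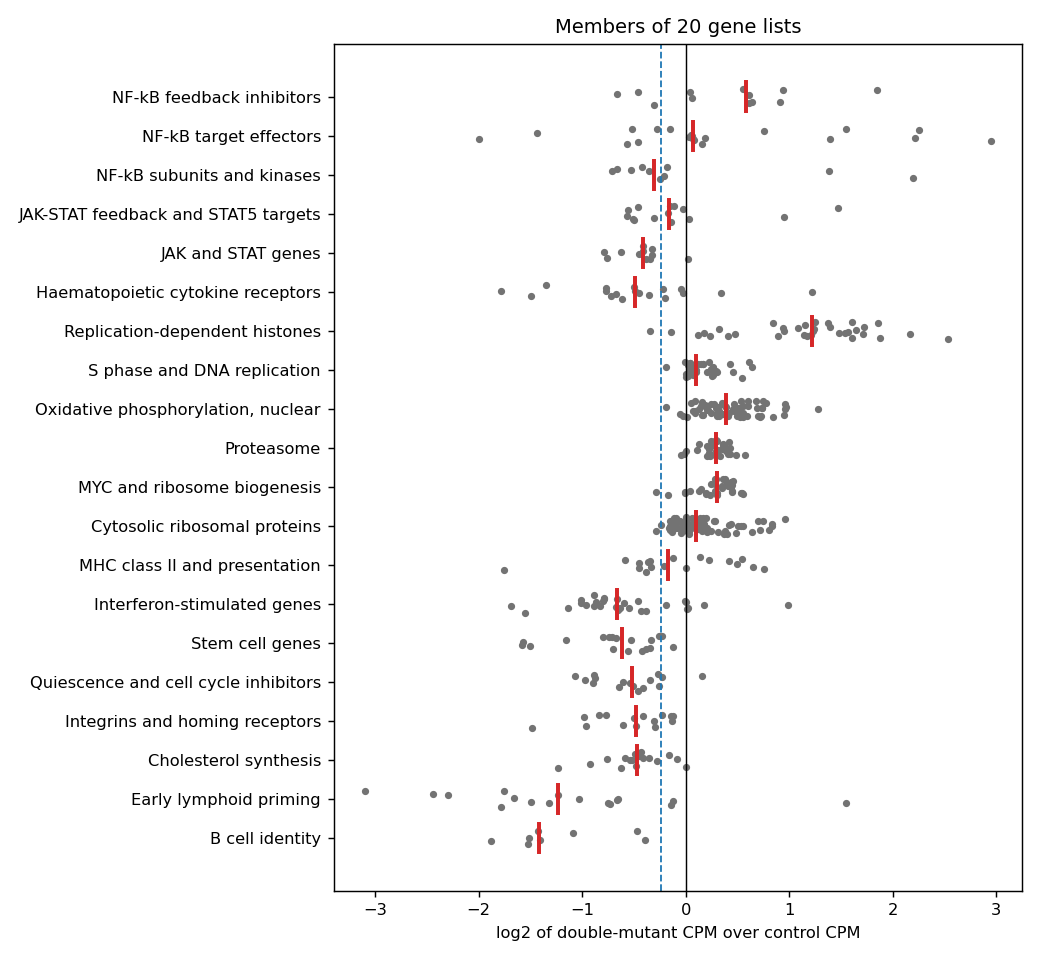
Log2 of the double-mutant over the control level (x axis) for every compared member of 20 gene lists (grey points), with the list median as a red bar. The solid line is no difference and the dashed line the median gene at −0.24. Histones lie farthest to the right at a median of 1.22 and B cell and early lymphoid genes farthest to the left at −1.42 and −1.23.

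Per cell, the NF-κB-responsive transcripts were spread over many double-mutant cells. At equal depth Nfkbia was found in 66.1% against 28.3% of double-mutant and control cells (93.5% and 48.96% before thinning), Ltb in 64.9% against 35.9% (87.98% and 50.2% before thinning) and Serpina3g in 62.2% against 32.8% (91.04% and 49.8% before thinning). Relb, a sparse transcript, was found in 14.3% against 3.46% (47.7% and 7.13% before thinning) and Pdcd1lg2 in 10.8% against 2.65% (34.9% and 5.02% before thinning). Nfkbia was higher in 13 of 13 classes, by log2 0.84 to 2.35, with the smallest ratio in B cell-like cells (110.1 against 61.6 CPM) and the largest in cluster 11, a class led by histone and S phase genes. Relb was higher in 13 of 13 classes (1.41 to 3.17), with 32.99 against 11.03 CPM in stem cell-like and 11.6 against 1.29 CPM in granulocyte-monocyte-like cells. Serpina3g was higher in 13 of 13 (1.16 to 2.06). Ltb was in 11.8% against 1.02% of granulocyte-monocyte-like cells, the class with the lowest share in both libraries, and in 77.97% against 20.6% of lymphoid-primed-like cells. The median of the feedback inhibitors within classes ranged from 0.04 to 0.71 over 13 classes.

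Ehd3 and Ccl5 differed in how they were spread over double-mutant cells. Ehd3, which encodes a membrane-trafficking ATPase (chr17:73804134-73832094), was at 2.44 CPM in control, 47.6 in Ikk2CA, 2.89 in Jak2V617F and 24.5 in the double mutant. In the double mutant, the 1% of cells with the most Ehd3 UMIs held 19.2% of them. It was in 10.3% against 1.23% of cells (36.5% and 2.25% before thinning), higher in 12 of 13 classes, and in 20.95% against 6.19% of megakaryocyte-like cells and 15.1% against 0.741% of cluster 14, a class led by mitotic genes. The exception was cluster 7, led by Meg3 and Ndn, where Ehd3 was at 10.7 against 13.6 CPM. That class also had the stem cell markers Mllt3, Trim47 and Pdzk1ip1 among its 25 leading genes. With only 1 of them in its top 10, it was not named. The other EHD gene values were close to control, with Ehd1 at 19.2 against 22.01 CPM and Ehd4 at 37.2 against 44.8 CPM. Ccl5 UMIs were more concentrated, with 58.4% of them in 1% of double-mutant cells, and the share of cells with Ccl5 was 9.0% against 1.39% (25.8% and 2.51% before thinning). Within classes Ccl5 was higher in 12 of 12, by log2 2.05 to 5.09. A class led by Trbc1, Xcl1 and Ccl5 held 18 control and 5 assigned double-mutant cells. When both libraries were clustered together, a cluster named T or NK cell-like by its markers held 17 control and 101 double-mutant cells. Its leading genes included Ccl5, but also Ly6d, Il7r, Dntt, Cox6a2, Arpp21 and Cmah, which lead the lymphoid-primed-like class as well. The name may therefore not hold for all of its cells. Ccl5 was also among the leading genes of unnamed clusters with 864 and 1564 double-mutant cells. The part of T or NK cell-like cells in the Ccl5 level was not tested.

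**Figure D3:**
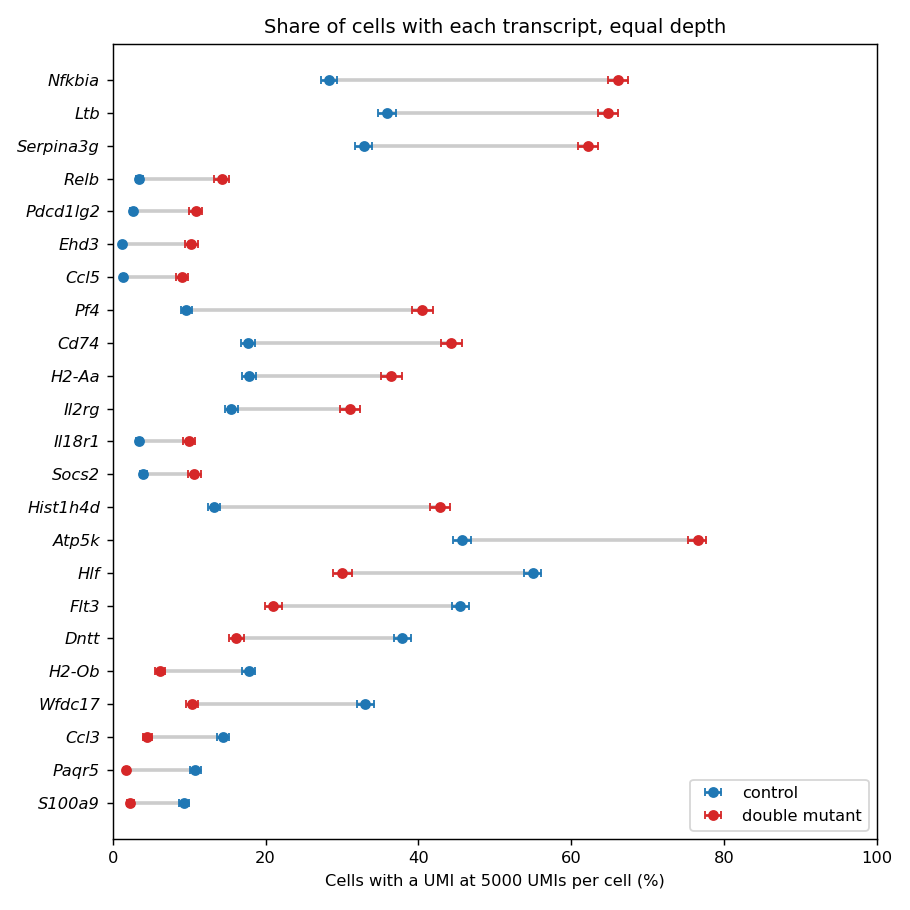
Share of cells with at least 1 UMI of each gene (x axis, %) after thinning every cell to 5000 UMIs, for control (blue, 7217 cells) and the double mutant (red, 5122 cells). Bars are exact 95% binomial intervals for counting error. Nfkbia, Ltb, Serpina3g, Pf4, Cd74, Hist1h4d and Atp5k show the widest gaps to the right, and Hlf, Flt3, Dntt and Wfdc17 the widest to the left.

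JAK-STAT genes differed little as lists. The 11 JAK and STAT genes had a median of −0.41 (relative −0.17) with 1 above 0, and none was past 2-fold. Stat5b was at 23.3 against 35.8 CPM and Stat3 at 52.6 against 69.9 CPM. The feedback and STAT5 target list had 3 of 14 above 0, against 26.9% of all genes (median −0.16, which turned to 0.08 relative to the median gene). Its exception was Socs2, a STAT5-induced signalling inhibitor, at 8.89 CPM in control, 11.4 in Ikk2CA, 17.5 in Jak2V617F and 24.6 in the double mutant. Socs2 was higher in 8 of 9 classes, among them megakaryocyte-like (54.3 against 11.9 CPM) and stem cell-like cells (46.2 against 12.2 CPM), and was lower in lymphoid-primed-like cells (10.8 against 25.9 CPM). Cish (8.98 against 11.1 CPM), Pim1 (248 against 351 CPM) and Socs1 (9.37 against 10.4 CPM), other known STAT5-induced genes, were not higher. The cyclins differed, with Ccnd1 at 52.6 against 27.3 CPM and Ccnd2 at 160.2 against 237 CPM, and Ccnd1 was higher in 12 of 12 classes.

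Cytokine receptor genes were mostly lower, as were most genes compared. Of 18, 16 were below 0, where 73.1% of all genes were, and 6 stood above the median gene (median −0.49, relative −0.26). At most 0.5 times as high were 3 (2.44% of all genes), and 1 was at least 2 times as high (0.832% of all genes). Il2rg, the common γ chain, was the higher one at 31.6 CPM in control, 81.6 in Ikk2CA, 44.7 in Jak2V617F and 73.6 in the double mutant, in 31.1% against 15.5% of cells and higher in 13 of 13 classes. Flt3, the receptor of multipotent progenitors, was at 144 CPM in control, 59.4 in Ikk2CA, 92.3 in Jak2V617F and 51.2 in the double mutant, and Il7r at 6.22 against 21.5 CPM. Il18r1, from the TNF and IL-1 receptor list, was at 22.2 against 6.91 CPM, while its partner chain Il18rap was at 12.9 against 20.3 CPM.

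Pf4, the platelet factor 4 gene (chr5:90772435-90773383), departed from the other platelet genes. It was at 99.3 CPM in control, 444 in Ikk2CA, 86.1 in Jak2V617F and 509 in the double mutant, and in 40.5% against 9.62% of cells (64.1% and 16.3% before thinning). The megakaryocyte and platelet list had 5 of 17 above 0, against 26.9% of all genes (median −0.21, turning to 0.03 relative to the median gene). The integrin Itga2b was at 28.1 against 30.5 CPM, the platelet glycoproteins Gp9 at 11.1 against 12.4 CPM and Gp5 at 10.2 against 9.52 CPM, and Selp, the P-selectin gene, at 14.5 against 10.3 CPM. Megakaryocyte-like cells were 388 of the assigned control and 482 of the double-mutant cells. Outside them Pf4 was higher in 12 of 12 classes. In stem cell-like cells it was at 395 against 52.3 CPM and in 57.5% against 16.3% of cells, and in cluster 1 at 184 against 12.02 CPM and in 40.000% against 5.66%. In the same stem cell-like cells Itga2b was at 16.7 against 18.6 CPM and Gp9 at 15.8 against 16.6 CPM. Granulocyte-monocyte-like cells had Pf4 in 5.38% against 2.04% of cells and lymphoid-primed-like cells in 5.93% against 2.52%. The part of free RNA in these shares was not tested.

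MHC class II genes were higher in most classes, by more than in the library sums. Cd74, the invariant chain, was at 133 CPM in control, 593 in Ikk2CA, 112 in Jak2V617F and 225 in the double mutant, and H2-Aa and H2-Eb1, the class II α and β chains, at 120.0 against 82.4 CPM and 90.6 against 57.7 CPM. In control, 1% of cells held 56.8% of Cd74 UMIs against 16.3% in the double mutant. An unnamed class led by Xcr1, Clec9a and Cd74 itself had 107 control and 17 double-mutant cells. Outside it, Cd74 was higher in 13 of 13 classes (0.48 to 3.55). The stem cell-like class had 520.3 against 117 CPM of Cd74 (64.7% against 29.3% of cells) and 273 against 109 CPM of H2-Aa. The lymphoid-primed-like class had 521 against 62.99 CPM of Cd74, and the granulocyte-monocyte-like class, which was lowest, 10.2 against 7.28 CPM (6.45% against 3.4% of cells). H2-Aa and H2-Eb1 were higher in 12 of 12 and 12 of 12 classes, and H2-Ab1 in 13 of 13. The genes that load peptide on class II did not follow: H2-DMa was at 159.8 against 185 CPM, and H2-Ob, which restrains loading, was at 11.6 against 39.04 CPM and lower in 11 of 11 classes (−1.78 to −0.87). The whole presentation list had 8 of 18 above 0 (median −0.16, relative 0.07).

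**Figure D4:**
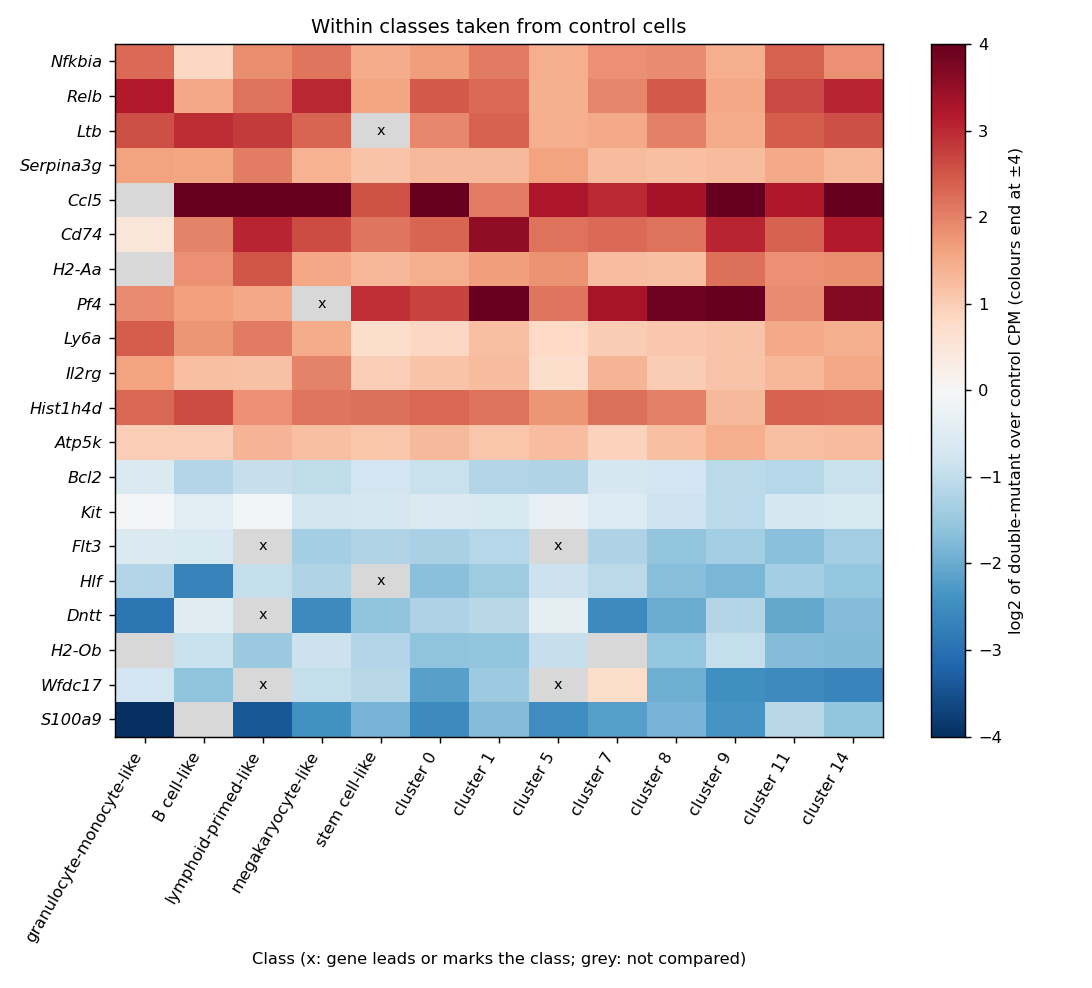
Log2 of the double-mutant over the control level (colour, red higher, blue lower) for 20 genes (rows) in the 13 classes defined from control cells (columns). Grey marks genes under 10 CPM in both libraries of a class, and x a gene that marks or leads the class. The rows from Nfkbia to Atp5k are red and those from Bcl2 to H2-Ob blue in each class compared, whereas Wfdc17 is red in cluster 7.

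Replication-dependent histone genes formed the highest list. Of 34 compared, 32 were above 0 and 22 at least 2 times as high, against 26.9% and 0.832% of all genes (median 1.22, relative 1.46). Its median within classes was 0.07 to 1.16 over 13 classes. Hist1h4d was at 37.97 CPM in control, 236 in Ikk2CA, 77.8 in Jak2V617F and 219 in the double mutant and in 42.8% against 13.3% of cells. Most histone messages lack the poly(A) tail that the droplet assay captures, and their copies are nearly identical, so single members are uncertain. The S phase list, which holds replication factors, had a median of 0.10 (relative 0.34) with 33 of 35 above 0 and none past 2-fold. The largest was Hells at 115 against 74.1 CPM. Within classes the S phase median ranged from −0.32 to 0.52 over 13 classes. The G2 and M phase list had 10 of 30 above 0, against 26.9% of all genes (median −0.08, turning to 0.15 relative to the median gene).

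Nuclear genes of oxidative phosphorylation and proteasome genes were higher by small amounts in nearly every member, while glycolysis and mitochondrially encoded genes were divided. Of 69 nuclear genes of oxidative phosphorylation, 66 were above 0 (median 0.39, relative 0.62, within classes 0.15 to 0.49 over 13 classes). Atp5k, a small ATP synthase subunit, was the largest at 141 CPM in control, 322 in Ikk2CA, 207 in Jak2V617F and 343 in the double mutant, in 76.5% against 45.7% of cells (96.3% and 68.4% before thinning). Cox7c, a cytochrome oxidase subunit, was at 922 against 475 CPM, and the complex I subunits Ndufa1 and Ndufa3 at 210.0 against 108 CPM and 237 against 120.3 CPM. Glycolysis genes had 8 of 18 above 0 and 13 of 18 above the median gene (median −0.09, turning to 0.15 relative to the median gene). Among them Gapdh and Ldha were higher in 13 of 13 classes and Ldhb lower in 13 of 13. Mitochondrially encoded genes had 4 of 13 above 0 (median −0.20, turning to 0.03). Proteasome genes had 30 of 32 above 0 (median 0.29, relative 0.53), including the activator Psme2 (222 against 149 CPM) and the immunoproteasome subunit Psmb10 (210.1 against 157 CPM). MYC targets and ribosome biogenesis genes had 28 of 32 (median 0.30), and cytosolic ribosomal protein genes 56 of 77 (median 0.10). Rpl41, which encodes the shortest ribosomal protein, was the highest of them relative to control, at 7099 against 3653 CPM.

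Transcript length went with the ratio. Over 8105 compared genes with a coding transcript in GENCODE, the shortest quintile (median length up to 953 bases) had a median log2 ratio of −0.01 and the longest quintile (from 3604.5 bases) −0.42, with steps between them in order. Genes 2-fold higher or more made up 2.28% of the shortest and 0.185% of the longest quintile. The mitochondrially encoded genes were divided, with 4 of 13 above 0. Among them mt-Nd3 (729 against 433 CPM) and mt-Nd4l (106 against 60.04 CPM) were higher. In contrast, mt-Atp6 (8115 against 10403 CPM) and mt-Co3 (7957 against 9868 CPM) were lower. Whether the ratios of these 13 genes went with their length was not tested. The part of transcript length, depth or RNA quality in the small-subunit results was not tested.

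Stem cell genes were lower throughout the list in the library sums. All 18 compared were below 0, where 73.1% of all genes were, and 4 of them at most 0.5 times as high (median −0.61, relative −0.38). Within the stem cell-like class 0 of 10 compared were above 0 (median −0.37, relative −0.18). In cluster 7, which also had stem cell markers among its leading genes, 5 of 20 were (median −0.30, relative −0.13). Hlf, a transcription factor of stem cell identity, was at 221 CPM in control, 43.4 in Ikk2CA, 198 in Jak2V617F and 74.5 in the double mutant and in 30.05% against 54.9% of cells, and it was lower in 12 of 12 classes (−2.67 to −0.85). Stem cell-like cells, for which it is a marker, were 1121 of the assigned control and 567 of the double-mutant cells. Other members differed less: Mecom, a stem cell self-renewal factor, was at 32.5 against 43.4 CPM, Gata2 at 56.2 against 61.2 CPM and Mllt3 at 25.2 against 30.1 CPM. Emcn (6.94 against 20.8 CPM) and Vldlr (11.3 against 31.98 CPM) were at most 0.5 times as high. Hox genes and cofactors such as Meis1 were lower in all 7 compared (median −0.45, relative −0.21), with Hoxa9 at 50.5 against 87.5 CPM and Meis1 at 106 against 169.7 CPM.

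Further lists were lower by smaller amounts, which the shift of the median gene covers in part. The counts below 0 stand beside 73.1% of all genes. Quiescence and cell cycle inhibitor genes had 15 of 16 below 0 (median −0.52, relative −0.28), with the forkhead factor Foxo3 at 26.2 against 51.4 CPM and the redox regulator Txnip at 133 against 244 CPM. All 15 integrin and homing receptor genes were below 0, and 4 stood above the median gene (median −0.47, relative −0.24). Among the 15 were Cd44 (43.5 against 84.8 CPM), Itga4 (65.4 against 111 CPM) and Alcam (11.5 against 32.2 CPM). Cholesterol synthesis genes had 17 of 18 below 0 (median −0.47, relative −0.23), with Insig1, a brake on sterol synthesis, at 10.5 against 24.8 CPM. The BCL2 family was divided, with 4 of 8 above 0 (median −0.07, turning to 0.16 relative to the median gene). Its survival genes Bcl2 and Mcl1 were at 62.4 against 108 CPM and 102 against 131 CPM, and the death effector Bax was at 125 against 91.8 CPM. Bcl2 was lower in 13 of 13 classes (−1.20 to −0.58) and Bax higher in 13 of 13. Other death-promoting members differed. Bbc3 was higher in 11 of 11 classes, Bad in 12 of 13 and Bak1 in 10 of 13. Bid was lower in 13 of 13, and Bcl2l11 was higher in only 2 of 10.

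Early lymphoid genes were lower in the library sums, and by less within classes over the fewer members compared there. Of 17 compared in the sums, 10 were at most 0.5 times as high, against 2.44% of all genes (median −1.23, relative −0.996). Ltb was the 1 member above 0. Within classes the median of the list was −0.83 to −0.11 over 13 classes, and in lymphoid-primed-like cells it was −0.11, turning to 0.11 relative to the median gene of that class. Clusters 5 and 7 were at −0.16 and −0.17, and relative to their median genes at 0.019 and 0.012. Genes that mark or lead a class were left out there, among them Dntt, Notch1 and Satb1 in lymphoid-primed-like cells and Satb1 in cluster 5. The medians of those 2 classes rest on 11 and 13 genes and do not describe all 17. Dntt, the terminal transferase of early lymphoid cells, was at 405 CPM in control, 342 in Ikk2CA, 179 in Jak2V617F and 129 in the double mutant and in 16.2% against 37.9% of cells, and was lower in 12 of 12 classes. Notch1 was at 19.5 against 45.9 CPM, Satb1 at 55.1 against 112 CPM and Ikzf1 at 63.7 against 106 CPM. Wfdc17, a secreted protease inhibitor gene, was at 31.1 against 157 CPM and in 10.3% against 33.1% of cells. Lymphoid-primed-like cells were 437 of the assigned control and 118 of the double-mutant cells, and cluster 5, led by Wfdc17 and Ccl3, 655 and 120. The 8 B cell genes were all below 0 and 6 at most 0.5 times as high (median −1.42). Within classes only part of the list could be compared. That was 1 gene in B cell-like, 2 in stem cell-like and 6 in lymphoid-primed-like cells. The median of the genes compared was −0.53 to 0.03 over 13 classes, a range that does not describe all 8 genes. B cell-like cells numbered 121 in control and 46 in the double mutant.

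Interferon-stimulated genes were lower in 24 of 29, where 73.1% of all genes were (median −0.66, relative −0.42). Of the 29, 5 were at most 0.5 times as high, against 2.44% of all genes. Ifi44 was at 24.2 CPM in control, 9.54 in Ikk2CA, 20.3 in Jak2V617F and 7.55 in the double mutant, and Irf7, which amplifies the interferon response, at 11.3 against 22.6 CPM. The highest was Ly6e at 1198 against 606 CPM, higher in 12 of 13 classes, and Ly6a from the same locus family was at 191 against 106 CPM. A class led by Ifit3, Ifit1 and Rsad2 held 60 control and 7 double-mutant cells, and its part in the list's level was not tested. Within classes the list's median was −0.64 to 0.06 over 13 classes. Relative to the median gene of the class it was 0.03 in stem cell-like cells, 0.20 in granulocyte-monocyte-like cells and −0.36 in cluster 14. The interferon-stimulated response element (GAAA, any 2 bases, then GAAA, on either strand) occurred in the promoters of 11 of 21 of them, against 3.95% of all compared genes and 10.1% of those at most 0.5 times as high. The STAT pattern TTCNNNGAA, which reads alike on both strands, occurred in 9 of 32 genes at least 2 times as high that had a promoter in the table, against 7.95% of compared genes. Overlaps of a κB with a STAT match occurred in 69 of 32851 windows.

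S100a9, a mature neutrophil gene whose transcript is often found as free RNA in droplet data, gave a yardstick for low shares. Neutrophil-like cells were 20 in control and 10 in the double mutant, yet S100a9 was in 3.0% against 10.9% of double-mutant and control stem cell-like cells and 1.88% against 10.000% of cluster 0. At the same depth, then, this transcript turned up in more control than double-mutant cells of classes that should lack it. Shares of Ccl3 (4.55% against 14.4%) and Paqr5, a progestin receptor family gene (1.76% against 10.8%), lie in a similar range. Ccl3 was also a leading gene of cluster 5, which held 655 control cells. The part of free RNA in these or in the shares of other genes was not tested.

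Several large ratios rested on a handful of cells. The haemoglobin genes Hba-a1, Hba-a2 and Hbb-bs were at 25.4 against 7.14 CPM, 22.7 against 4.87 CPM and 56.99 against 12.4 CPM, but 1% of double-mutant cells held 99.8%, 97.4% and 94.1% of their UMIs, and Hbb-bs was in 3.22% against 3.16% of cells. Without the cells with the highest doublet scores their log2 ratios turned to −1.56, −0.82 and −0.57. The mast cell proteases Mcpt4 and Cma1 were at 12.04 against 0.00977 CPM (1 control UMI) and 17.97 against 1.15 CPM, from 11 and 16 of 5122 double-mutant cells at equal depth. Jchain, the immunoglobulin joining chain, was at 19.5 against 167 CPM, with 97.9% of control UMIs in 1% of cells. Car1, an erythroid carbonic anhydrase, was at 16.1 against 144 CPM, where erythroid-like cells numbered 154 in control and 12 in the double mutant. These library sums therefore follow a small number of cells.

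The pools differed in the share of cells with Xist, an RNA that female cells make from their silenced X. Among cells with at least 5000 UMIs, 2998 control cells (41.5%) and 3630 double-mutant cells (70.9%) had no Xist UMI. Each comparison was repeated within these subsets of the libraries. Leaving out sex-linked genes and those too low to compare, 221 named genes had a value in both, of which 75 were higher in both and 140 lower in both. The difference was smaller in cells with an Xist UMI for 66 of the 75 and 108 of the 140. Nfkbia had log2 ratios of 1.90 and 1.42 without and with Xist, Relb 2.18 and 1.93, Pf4 2.30 and 1.81 and Ltb 1.65 and 1.20. Hlf had −1.98 and −0.82, Flt3 −1.76 and −1.08 and Procr, the protein C receptor of stem cells, −1.67 and −0.38. Socs2 had 2.24 and 0.44 and Ccl5 3.82 and 1.36, and Cma1, which rests on few cells, 6.23 and 2.96. The 2 subsets also differed in makeup, since in the double mutant Xist was in 43.9% of stem cell-like cells and 47.5% of cluster 5 but 20.7% of megakaryocyte-like cells, whereas in control the 3 shares were 58.9%, 52.2% and 59.8%. Whether sex, makeup or unequal representation of the pooled mice goes with the smaller differences was not tested.

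**Figure D5:**
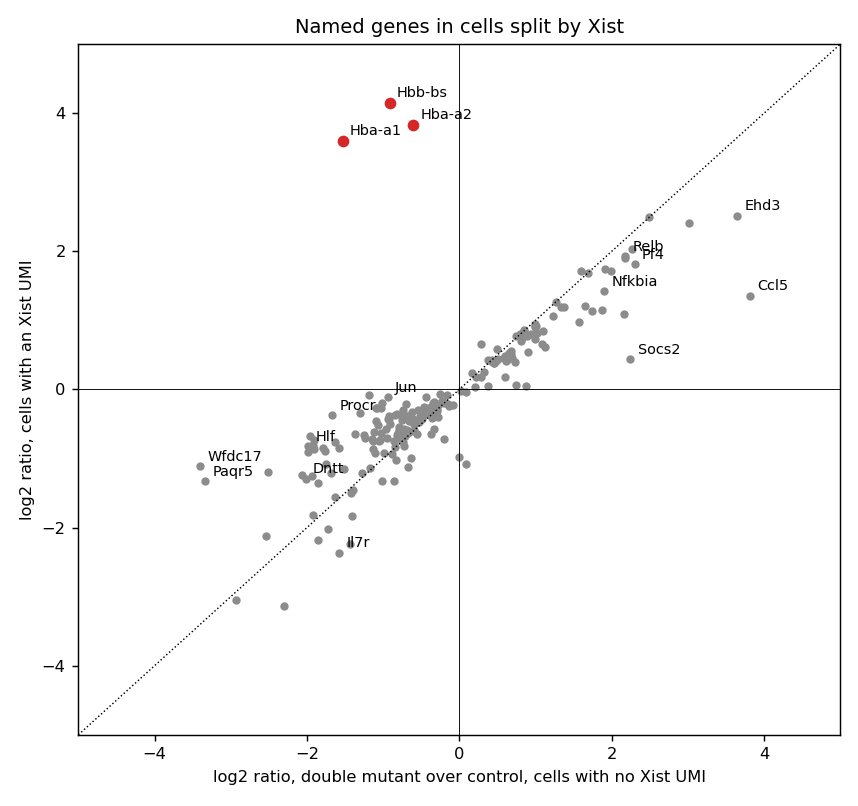
Log2 ratio of double mutant to control for 218 named genes in cells with no Xist UMI (x axis) and with an Xist UMI (y axis), both with at least 5000 UMIs. The dotted line marks equal ratios, red marks haemoglobin genes, and 3 genes beyond 5 on either axis are left out. Most points lie between the dotted line and the horizontal axis, and the haemoglobin genes sit in the opposite quadrant.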

How the data were processed

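The deposited files hold raw counts of UMIs per gene and barcode for 32285 genes. Per the submitters' processing notes they were aligned to mm10, with Cell Ranger named as version 3.0.1 in the series design text and 4.0.0 in the file headers. Libraries were prepared with the 10x droplet assay from LSK cells sorted after Cd117 bead enrichment, 1 library per genotype from 5 pooled mice. Barcodes with 500 to 7500 genes and under 10% mitochondrial UMIs were kept, their counts summed and scaled to CPM with numpy 2.4.6 and pandas 2.3.3, and genes at 10 CPM or more in either library compared. Intervals are exact conditional binomial (scipy 1.17.1) and, since mice were pooled, cover counting error only. The ratio script was tested on simulated data.

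Control cells thinned to 5000 UMIs were clustered with scanpy 1.11.5 (2000 variable genes, 30 components, 15 neighbours, Leiden resolution 1), and each double-mutant cell took the class most common among its nearest control cells. A class was named where at least 3 of a fixed list of markers were among its 25 leading genes and at least 2 among its top 10; this naming rule was chosen after the clusters were seen. Scrublet called 0 control and 2 double-mutant doublets, so it did not work here, and an alternative left out the 641 and 243 cells with the highest scores. Other alternatives covered scaling (TMM from edgeR 4.0.16, median of ratios as in DESeq2 1.42.0), gene and barcode filters, cell weights, depth, Xist status and cell classes.

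Named genes are the 14 highest and 14 lowest ratios among well-detected genes (20 CPM or more in either library and a UMI in 5% or more of its thinned cells), up to 5 members of each list with the largest difference, the 6 largest gains and losses in CPM, and markers of the sort, of sex and of the engineered loci. Further list members and paralogs were chosen as examples after their values were seen. The members and gene lists were chosen with earlier results of these data known. Results for some genes are not reported here.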

Additional observations from a re-analysis of the deposited data

Results flagged for a closer look

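The haemoglobin genes stood on opposite sides of control in cells without and with an Xist UMI. Without an Xist UMI, the double mutant to control log2 ratio was −1.53 for Hba-a1, −0.61 for Hba-a2 and −0.92 for Hbb-bs. With one, it was 3.60 for Hba-a1, 3.83 for Hba-a2 and 4.15 for Hbb-bs. The difference between the 2 subsets was not tested.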

How the results depend on the processing

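The 69 genes at least 2 times and 202 at most 0.5 times as high in the double mutant came to 114 and 101 with TMM scaling, 116 and 95 with median-of-ratios scaling, and 116 and 95 relative to the median gene. With 50 CPM or more required they were 24 and 26 of 3002 genes, and with 10 UMIs or more 409 and 1842 of 15651, where fewer or more genes were compared. The lower count was 306 in cells with no Xist UMI, 86 in cells with an Xist UMI and 67 with sums standardised to the control class shares; the cause was not tested. Under the other barcode, weight, depth, doublet and lineage settings both counts stayed within 1.5 times. Of 221 named gene ratios, 213 kept their direction with TMM scaling, 209 with class-standardised sums, 217 in cells with no Xist UMI and 219 in cells with one, and of 43 list medians 34 did with TMM scaling.

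Directions turned for genes of rare cells. With class-standardised sums the log2 ratio was 0.0081 for Cebpe, 1.93 for Chil3, 0.048 for Ifit1 and 0.085 for Mzb1, and the median of the mature neutrophil list was 2.46. Without cells of the named lineage classes it was 0.15 for Cebpe, 0.21 for Elane, 0.10 for Klf1, −0.13 for Hba-a1 and −0.060 for Hbb-bs. Without the cells with the highest doublet scores it was −1.56 for Hba-a1, −0.82 for Hba-a2 and −0.57 for Hbb-bs, and in cells with no Xist UMI −1.53, −0.61 and −0.92. In cells with an Xist UMI the Ly6 family median was −0.27 and that of mast cell, basophil and eosinophil genes −0.067, and the latter was −0.18 at 50 CPM or more. With classes from both libraries clustered together, 630 of 673 ratios within classes kept their direction, and the log2 ratio turned to 0.12 for Apoe, −0.79 for Ifit1 and −0.28 for Tnip3 in lymphoid-primed-like cells and to −1.43 for Mcpt8 in megakaryocyte-like cells. Cell numbers limit the values of small classes, and genes under 10 CPM were not compared. No paired analysis was possible because each genotype had 1 library.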
